A study of Mus musculus with 6 samples.

Results

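Interferon response genes are the transcripts that cells raise when an interferon binds its receptor, and 46 of them were followed here in the eyes of aged mice. A probe set was taken for a gene where the platform annotation gave it exactly 1 symbol and that symbol was on the list, and the probe set of highest mean was kept where there were several. This gave 43 measured genes among 22180 genes on the array. Oas1a and Gbp2 were left out because their probe sets carry several symbols, and Ifi44 because the annotation does not list it. The first group was 3 samples of 5XFAD mice, heterozygous for transgenes that encode familial Alzheimer's disease forms of human amyloid precursor protein and presenilin 1 under the neuronal Thy1 promoter. The second was 3 samples of their wild-type littermates without the transgenes. All mice were 12 months old and received no experimental treatment. Total RNA of the outer eye wall, that is retinal pigment epithelium (RPE) with choroid and sclera, was hybridised to Affymetrix arrays, 1 per sample. Precision is limited by having 3 arrays a group. Whether a sample was 1 animal is not stated, so p-values reflect only how these samples vary, and part of that may be technical.

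Type I interferons (the alpha and beta forms) and type III interferons act through the kinases Jak1 and Tyk2 on a complex that contains Stat2 and Irf9 and binds interferon-stimulated response elements in promoters. Interferon gamma acts through Jak1 and Jak2, and its signal reaches gamma-activated sites in promoters and induces Irf1, guanylate-binding proteins and, in mouse, immunity-related GTPases. In the eye, RPE cells, choroidal vessels and resident macrophages can all respond. In bulk tissue a larger number of responding cells and more transcript per cell cannot be told apart.

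The promoter stretches below are from genes whose values carry the results, and show the letters these factors are known to recognise. RefSeq promoter windows (GRCm38.p6, 250 bases before to 50 after the transcript start) were present for 35 of the 46 genes in 42 windows. The response element core was searched as GAAANNGAAA and its reverse complement TTTCNNTTTC, and the gamma-activated site as TTCNNNGAA, which reads the same on both strands. The core occurred in windows of 19 of the 35 genes and in 47.6% of their windows, beside 3.44% of all 32851 windows. The gamma-activated site occurred in 11 of the 35 genes and in 26.2% of windows, beside 8.30% of all windows, and 1 window had both motifs overlapping. A match is a description of the letters and not evidence that a factor binds there. Capitals mark the response element core, each line runs 5′ to 3′ in the direction of transcription, and coordinates are GRCm38.p6.
Ifit1 (chr19:34640765-34640833, plus strand): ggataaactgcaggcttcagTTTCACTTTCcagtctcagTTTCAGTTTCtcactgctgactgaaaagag
Ifit3 (chr19:34583353-34583436, plus strand): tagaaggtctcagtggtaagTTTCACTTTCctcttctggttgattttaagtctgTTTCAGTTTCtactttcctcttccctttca
Isg15 (chr4:156200855-156200916, minus strand): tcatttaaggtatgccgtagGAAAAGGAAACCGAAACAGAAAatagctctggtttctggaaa
Bst2 (chr8:71537567-71537622, minus strand): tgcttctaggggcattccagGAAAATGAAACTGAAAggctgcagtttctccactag
Gbp7 (chr3:142530263-142530312, plus strand): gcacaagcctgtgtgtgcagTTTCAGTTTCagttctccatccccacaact
Igtp (chr11:58199502-58199551, plus strand): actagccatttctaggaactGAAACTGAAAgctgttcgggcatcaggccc
B2m (chr2:122147528-122147577, plus strand): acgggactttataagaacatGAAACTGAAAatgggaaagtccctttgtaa
Ifit1 and Ifit3 carry the same letters in both of their matches, Isg15 carries 3 overlapping matches, and B2m carries 1.

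Some facts of the arrays bear on all that follows. Wild type replicate 2 had the lowest median signal (5.59 on the log2 scale, against 5.65 to 5.71 elsewhere) and correlated least with the rest (mean r = 0.984, against 0.986 to 0.988). Results are therefore given with and without it. Markers of the RPE were strongly present, with Rpe65, the visual cycle isomerase, between 12.23 and 12.49 in 5XFAD and between 12.64 and 12.78 in wild type. The tissue also held myeloid cells, since Cd68, a macrophage lysosomal protein, lay between 10.78 and 11.17 in 5XFAD and between 10.54 and 10.90 in wild type.

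No interferon response gene passed the test for a difference between 5XFAD and wild-type tissue. In limma, 0 of the 43 genes passed a Benjamini-Hochberg adjusted p of 0.05 (smallest adjusted p = 0.85), where 0.0225% of all genes passed. At an unadjusted p under 0.05, 0 were higher and 0 lower, beside 6.28% of all genes (2.89% higher and 3.39% lower). The 3 values per group overlapped in all 43 genes, while they did not overlap in 11.3% of all genes (4.72% higher and 6.62% lower). A positive difference was found in 13 genes, beside 47.2% of all genes, and a negative one in 30, with a median log2 difference of -0.07 against -0.01 over all genes, and the single differences ran from -0.41 for Ifit1 to 0.22 for Ifi35. The 95% interval of the difference lay within 0.5 log2 units of 0 on either side for 20 of the 43 genes (46.5%), beside 80.2% of all genes. For the rest of the 43 a difference of that size could not be resolved with these arrays.

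What these genes did share was a difference between single arrays of the same genotype. Wild type replicate 2 gave the highest of the 6 values in 32 of the 43 genes, beside 18.6% of all genes. It lay above both other wild-type arrays in 37 of them, beside 36.8% of all genes. The median gene stood 0.36 log2 units above its 6-array mean there, and between -0.14 and 0.05 on the 5 other arrays. Over all genes the same medians were between -0.01 and 0.01. The median range over the arrays was 0.63 for these genes and 0.40 for all genes, and it was 0.44 against 0.36 when wild type replicate 2 was left out.

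**Figure D1:**
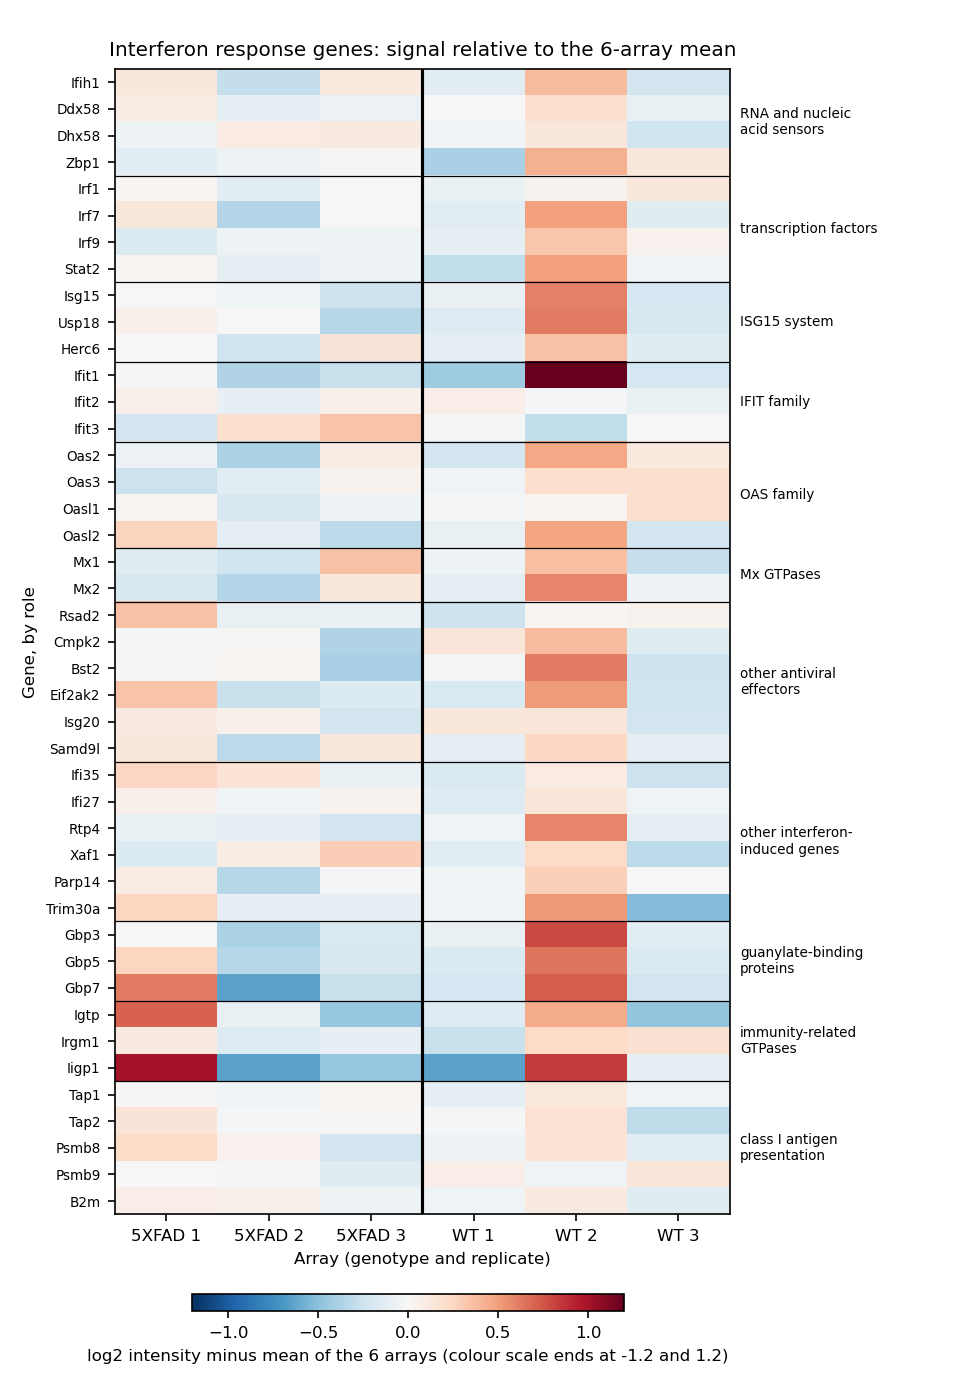
Signal of the 43 measured interferon response genes (rows, by role) on each array (columns), as log2 intensity minus the gene's mean over the 6 arrays. Red cells in the column of wild type replicate 2 run through most rows, and 5XFAD replicate 1 is most red in Gbp7, Igtp and Iigp1; Ifit1 in wild type replicate 2 lies past the end of the colour scale.

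**Figure D2:**
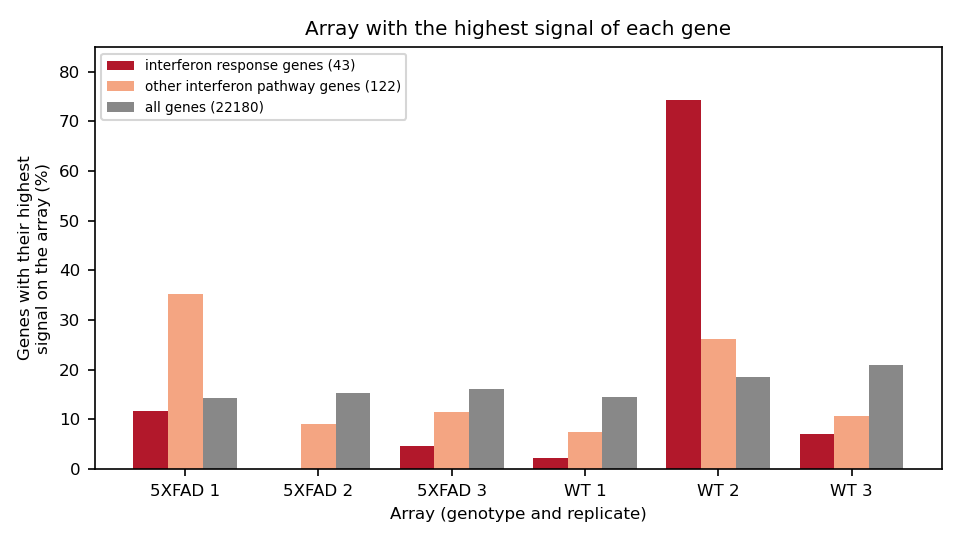
Percentage of genes whose highest signal fell on each array (x axis), for the 43 interferon response genes, the 122 other interferon pathway genes and all 22180 genes. The interferon response genes reach 74.4% on wild type replicate 2, where all genes reach 18.6%.

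Without wild type replicate 2 the balance of signs turned. A positive difference was then found in 32 of the 43 genes, with a median of 0.08, beside 47.4% of all genes positive and a median of -0.01. In limma 0 genes passed the adjusted threshold (smallest adjusted p = 0.55) where 0.0857% of all genes did. Ifi35 alone had an unadjusted p under 0.05, at a difference of 0.32 ± 0.13 (± SE), beside 8.5% of all genes (3.77% higher and 4.72% lower). Groups did not overlap in 5 of the 43 genes, beside 24.7% of all genes (10.7% higher and 14.0% lower) with 3 against 2 arrays. The sign of the group difference therefore rested on 1 array, while the lack of a call did not.

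Sensors of viral RNA and DNA came first in the pathway. Ddx58, which encodes RIG-I, a sensor of RNA ends, had 7.82, 7.62 and 7.66 in 5XFAD and 7.73, 7.93 and 7.64 in wild type (log2 intensity, replicates 1 to 3, as for all values by array). Dhx58, which encodes LGP2, a regulator of the other sensors of its family, had 5.77, 5.93 and 5.94 in 5XFAD and 5.80, 5.97 and 5.59 in wild type. In both genes the groups overlapped almost fully. Their differences were -0.07 ± 0.11 and 0.09 ± 0.12. Ifih1, which encodes MDA5, a sensor of long double-stranded RNA, had 7.84, 7.42 and 7.82 in 5XFAD and 7.58, 8.08 and 7.48 in wild type. Zbp1, a sensor of left-handed nucleic acid that can trigger cell death, had 6.17, 6.23 and 6.31 in 5XFAD and 5.91, 6.72 and 6.43 in wild type. All 4 sensors were highest in wild type replicate 2.

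The transcription factors carry the signal to the nucleus. Irf9, the DNA-binding part of the complex with Stat2, had 7.86, 7.97 and 7.97 in 5XFAD and 7.92, 8.36 and 8.08 in wild type. Its difference was -0.19 ± 0.13 (95% interval -0.47 to 0.10). Stat2 had 7.67, 7.53 and 7.59 in 5XFAD and 7.35, 8.14 and 7.62 in wild type, and Irf7, which amplifies type I interferon production, had 7.07, 6.58 and 6.93 in 5XFAD and 6.81, 7.43 and 6.79 in wild type. Wild type replicate 2 was the highest array in these 3. Irf1, a factor induced mainly by interferon gamma, did not follow them: it had 7.22, 7.07 and 7.20 in 5XFAD and 7.12, 7.24 and 7.33 in wild type, with wild type replicate 3 on top.

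Genes of the ISG15 system, which attaches a ubiquitin-like protein to targets, stood out in the same array. Isg15, the modifier itself, had 6.58, 6.53 and 6.33 in 5XFAD and 6.49, 7.19 and 6.37 in wild type. Usp18, which removes ISG15 and damps the type I receptor, had 7.40, 7.35 and 7.00 in 5XFAD and 7.19, 7.97 and 7.15 in wild type. In each, wild type replicate 2 stood alone above 5 arrays that lay close together, at 1.69-fold and 1.74-fold the mean of the other 2 wild-type arrays. Herc6, the main ISG15 ligase in mouse, had 7.56, 7.33 and 7.72 in 5XFAD and 7.45, 7.92 and 7.42 in wild type. The differences between the groups were -0.20 ± 0.20 for Isg15, -0.19 ± 0.21 for Usp18 and -0.06 ± 0.16 for Herc6.

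Ifit1 had the widest range of all 43 genes. The IFIT proteins bind foreign RNA and block its translation, and Ifit1 had 7.89, 7.52 and 7.61 in 5XFAD and 7.45, 9.13 and 7.67 in wild type. Wild type replicate 2 was 2.96-fold the mean of the other 2 wild-type arrays, which lay close to the 5XFAD values. The group difference was -0.41 ± 0.37 with that array and 0.11 without it. Ifit3, with the same promoter letters shown above, went the other way: it had 6.39, 6.80 and 6.95 in 5XFAD and 6.59, 6.32 and 6.62 in wild type, and wild type replicate 2 was its lowest array. Its difference was 0.21 ± 0.16. Ifit2 spanned a narrow range, with 6.83, 6.67 and 6.83 in 5XFAD and 6.85, 6.76 and 6.69 in wild type. These genes have close copies on chromosome 19, so that probes may share signal among them.

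The OAS family makes the oligoadenylates that activate RNase L, and Oas3 had the smallest p of all 43 genes. It had 5.41, 5.53 and 5.71 in 5XFAD and 5.63, 5.87 and 5.86 in wild type, a difference of -0.24 ± 0.12 (95% interval -0.50 to 0.03; limma, Benjamini-Hochberg adjusted p = 0.85). Only 5XFAD replicate 3 reached into the wild-type range. Oasl2, an OAS-like protein, had 7.93, 7.55 and 7.35 in 5XFAD and 7.58, 8.14 and 7.45 in wild type, a difference of -0.12 ± 0.20. Oas2 had 6.33, 6.02 and 6.49 in 5XFAD and 6.18, 6.86 and 6.52 in wild type, while Oasl1, known in mouse to restrain Irf7 translation, had 5.57, 5.35 and 5.48 in 5XFAD and 5.53, 5.57 and 5.75 in wild type. All 4 measured family members had a negative difference. Without wild type replicate 2 it was -0.07 for Oas2, -0.19 for Oas3 and -0.17 for Oasl1, but 0.09 for Oasl2.

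The Mx genes encode dynamin-like GTPases that trap viral particles, and both were dim. Mx2 had 4.94, 4.78 and 5.27 in 5XFAD and 5.03, 5.72 and 5.07 in wild type, a difference of -0.27 ± 0.20. Mx1, which is defective in many laboratory strains, had 4.16, 4.07 and 4.66 in 5XFAD and 4.25, 4.67 and 4.03 in wild type. Both were highest in wild type replicate 2, with 5XFAD replicate 3 the highest 5XFAD array.

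Among the other antiviral effectors, Bst2 followed the ISG15 pattern. Bst2, or tetherin, which holds budding virus at the cell surface, had 9.24, 9.29 and 8.87 in 5XFAD and 9.24, 9.88 and 9.01 in wild type, a difference of -0.25 ± 0.21. Cmpk2, a nucleotide kinase of mitochondria, had 7.13, 7.16 and 6.79 in 5XFAD and 7.29, 7.52 and 7.00 in wild type, a difference of -0.24 ± 0.16. Its neighbour on chromosome 12, Rsad2, which encodes viperin, had its highest value in 5XFAD replicate 1, with 6.70, 6.26 and 6.26 in 5XFAD and 6.10, 6.37 and 6.39 in wild type. Eif2ak2, which encodes the kinase PKR that halts translation on double-stranded RNA, was high in both of those arrays, with 7.55, 6.94 and 7.04 in 5XFAD and 7.02, 7.72 and 6.97 in wild type. The exonuclease gene Isg20 and Samd9l, an inhibitor of viral translation, differed by -0.03 ± 0.14 and -0.02 ± 0.16.

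The remaining interferon-induced genes included the largest positive difference. Ifi35, whose protein takes part in innate signalling, had 8.46, 8.38 and 8.13 in 5XFAD and 8.04, 8.31 and 7.96 in wild type, a difference of 0.22 ± 0.13 (95% interval -0.08 to 0.52; limma, Benjamini-Hochberg adjusted p = 0.90). Its second probe set, dimmer at 5.63 to 5.98, differed by -0.04 ± 0.12, so the probe sets of this gene disagree in sign. Ifi27 varied little, with 9.04, 8.94 and 9.03 in 5XFAD and 8.83, 9.13 and 8.93 in wild type. Rtp4, a chaperone of receptors, had 7.69, 7.67 and 7.55 in 5XFAD and 7.73, 8.37 and 7.67 in wild type, again with wild type replicate 2 alone on top. The death-promoting factor Xaf1, the ADP-ribosyltransferase gene Parp14 and the ubiquitin ligase gene Trim30a differed by 0.14 ± 0.17, -0.17 ± 0.14 and 0.04 ± 0.23.

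Among the GTPases of cell-autonomous defence, Gbp7, Igtp, Iigp1 and, to a lesser degree, Gbp5 were also high on a second array. Guanylate-binding proteins (GBPs) and immunity-related GTPases (IRGs) attack the vacuoles of intracellular pathogens and respond strongly to interferon gamma. Gbp7 had 8.60, 7.34 and 7.71 in 5XFAD and 7.77, 8.71 and 7.75 in wild type, Igtp had 7.57, 6.77 and 6.41 in 5XFAD and 6.71, 7.31 and 6.39 in wild type, and Iigp1 had 7.48, 5.84 and 6.03 in 5XFAD and 5.84, 7.32 and 6.37 in wild type. In these 3 genes 5XFAD replicate 1 and wild type replicate 2 stood together above the other 4 arrays. The mean of the other 2 arrays of the same genotype was exceeded 2.10-fold, 1.97-fold and 2.92-fold in 5XFAD replicate 1, and 1.94-fold, 1.69-fold and 2.32-fold in wild type replicate 2, in the same order. Group differences were -0.20 ± 0.34, 0.11 ± 0.30 and -0.06 ± 0.45. The interval for Iigp1, from -1.08 to 0.96, was the widest of the 43.

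Gbp3 and Gbp5 lie beside Gbp7 on chromosome 3. Gbp3 was high mainly in wild type replicate 2, and Gbp5 was highest there with 5XFAD replicate 1 next. Gbp3 had 6.91, 6.53 and 6.73 in 5XFAD and 6.82, 7.71 and 6.78 in wild type, a difference of -0.38 ± 0.23. Gbp5, which promotes inflammasome activity, had 5.82, 5.22 and 5.37 in 5XFAD and 5.39, 6.21 and 5.39 in wild type. Irgm1, which regulates the other IRG proteins, had 6.94, 6.68 and 6.73 in 5XFAD and 6.56, 7.07 and 7.01 in wild type. In all 6 measured GBP and IRG genes 5XFAD replicate 1 was the highest 5XFAD array, beside 31.7% of all genes. Among the 12 measured ISG15, IFIT, OAS and Mx genes it was the highest 5XFAD array in 6. Their mean stood 0.45 above the 6-array mean in 5XFAD replicate 1 for the GTPases and -0.04 from it for the 12 others, whereas wild type replicate 2 stood at 0.62 and 0.39. Being the highest 5XFAD array was not particular to the GTPases: 5XFAD replicate 1 was so in 29 of all 43 genes (67.4%), among them 4 of the 5 class I genes. Its excess over the mean of the other 5XFAD arrays was 0.27 in Gbp3, 0.52 in Gbp5 and 0.24 in Irgm1. In Oasl2 it was 0.47 and in Eif2ak2 0.56. GBP genes have near-identical copies, so that probes may share signal.

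**Figure D3:**
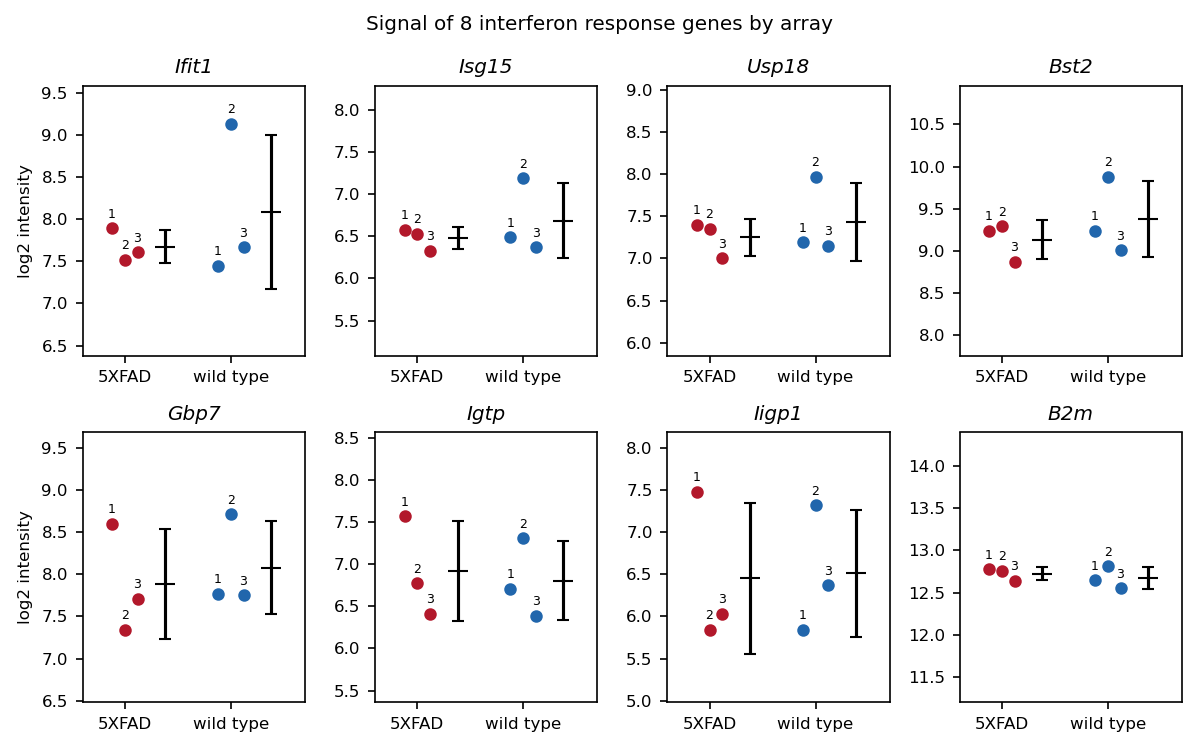
Log2 intensity (y axis, the same span in every panel) of 8 interferon response genes in the 3 5XFAD arrays (red, left) and the 3 wild-type arrays (blue, right), with replicate numbers; bars show mean ± SD, n = 3. Wild type replicate 2 stands alone in Ifit1, Isg15, Usp18 and Bst2, is joined by 5XFAD replicate 1 in Gbp7, Igtp and Iigp1, and no array stands out in B2m.

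Genes of class I antigen presentation had a median range of 0.29 over the 6 arrays, against 0.40 for all genes. B2m, the light chain of class I molecules, had 12.78, 12.76 and 12.64 in 5XFAD and 12.65, 12.81 and 12.55 in wild type, a difference of 0.05 ± 0.11. Psmb9, an immunoproteasome subunit, had 6.82, 6.81 and 6.68 in 5XFAD and 6.90, 6.77 and 6.97 in wild type, a difference of -0.11 ± 0.10. Both groups overlapped in each. Tap1, of the peptide transporter, had 7.57, 7.52 and 7.59 in 5XFAD and 7.45, 7.68 and 7.51 in wild type, a difference of 0.01 ± 0.10. Its partner Tap2 had 6.76, 6.58 and 6.62 in 5XFAD and 6.58, 6.78 and 6.30 in wild type, a difference of 0.10 ± 0.13. Psmb8, another immunoproteasome subunit, had 7.56, 7.39 and 7.11 in 5XFAD and 7.28, 7.50 and 7.20 in wild type, a difference of 0.02 ± 0.14. The range was wider in Tap2 (0.47) and Psmb8 (0.44) than in the median gene, and wild type replicate 2 lay above both other wild-type arrays in 4 of the 5 genes. The mean of the 5 genes stood 0.10 above the 6-array mean in wild type replicate 2 and 0.09 above it in 5XFAD replicate 1. The 95% intervals of all 5 differences lay within 0.5 log2 units of 0.

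**Figure D4:**
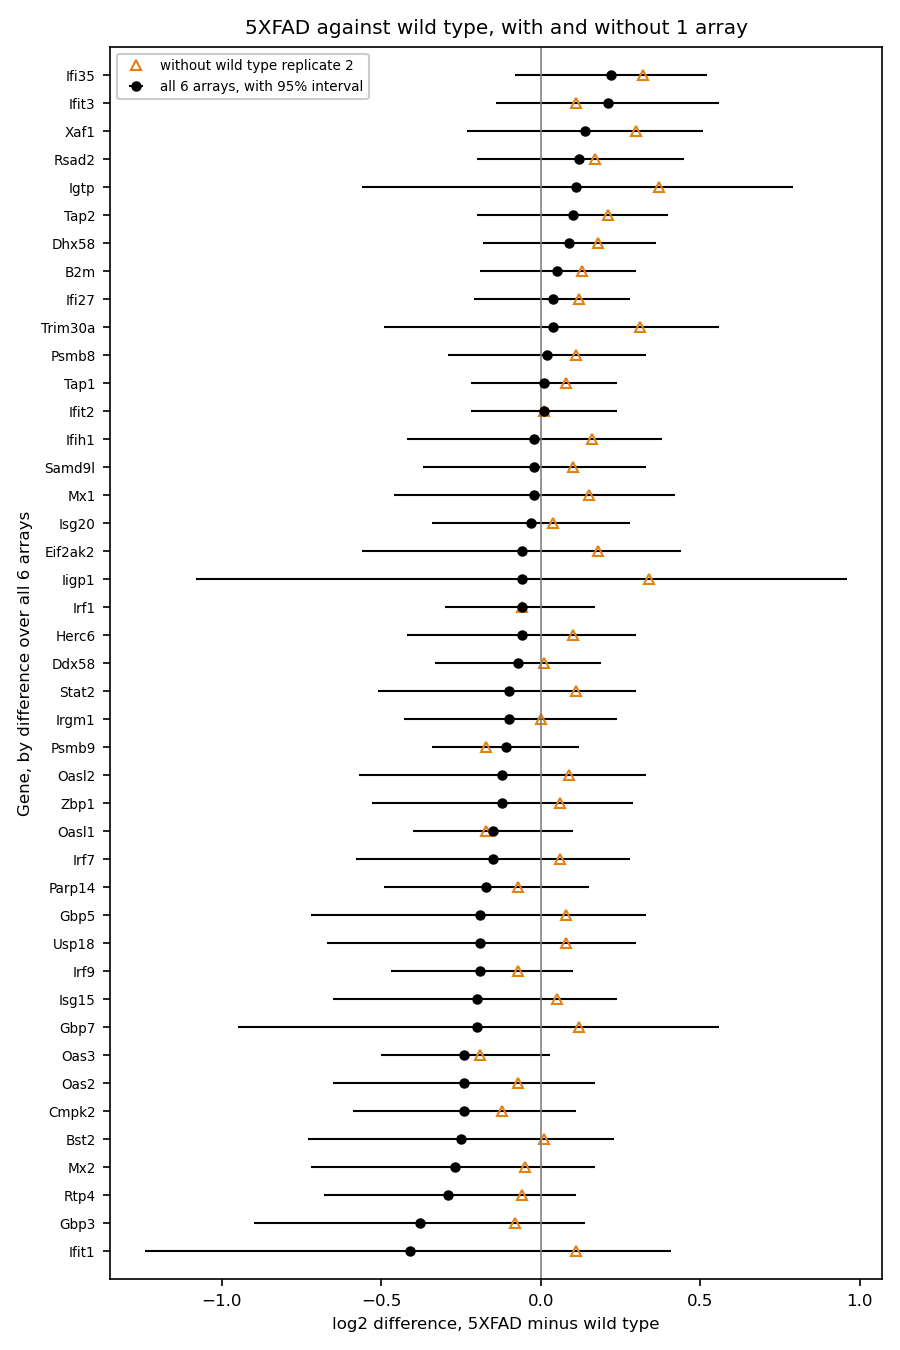
Log2 difference, 5XFAD minus wild type (x axis), of each of the 43 genes (y axis) over all 6 arrays with its 95% interval (black), and without wild type replicate 2 (orange triangles). Every black interval spans 0, and the triangles lie to the right of the circles for most genes.

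The rest of the pathway was read from 122 other measured genes. In limma 0 passed the adjusted threshold, and 8 were higher and 1 lower at an unadjusted p under 0.05, beside 2.89% and 3.39% of all genes. Among the 6 interferon receptors differences ran from -0.05 ± 0.11 for Ifngr2 to 0.12 ± 0.14 for Ifnar1, with 0.09 ± 0.09 for Ifnar2, 0.11 ± 0.20 for Ifngr1 and 0.01 for both Ifnlr1 and Il10rb. Ifnar2 was the only receptor whose arrays did not overlap, with 9.33, 9.30 and 9.33 in 5XFAD and 9.21, 9.24 and 9.24 in wild type. Of the ligands, Ifnb1 had 3.68, 3.52 and 3.49 in 5XFAD and 3.19, 3.35 and 3.40 in wild type, a difference of 0.25 ± 0.11 (limma, Benjamini-Hochberg adjusted p = 0.77). Its arrays did not overlap, and all its values were dim. Ifna9 (-0.34 ± 0.14) and Ifna11 (0.33 ± 0.15) had an unadjusted p under 0.05 with arrays that overlapped. Ifng, the gamma interferon, was dim too, with 4.94, 4.97 and 4.62 in 5XFAD and 5.02, 4.90 and 4.93 in wild type. Of 19 measured ligands 0 had their highest value in wild type replicate 2. Over the 122 genes that array was highest in 32 (26.2%) and 5XFAD replicate 1 in 43 (35.2%), beside 18.6% and 14.3% of all genes. Wild type replicate 2 was the highest array in 20 of the 51 further interferon-induced genes, and in 0 of the 8 kinases, STATs and IRFs.

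Ifit1bl1, an Ifit1-like gene, had the largest difference of the 122 genes. It had 4.55, 4.84 and 4.82 in 5XFAD and 3.74, 4.34 and 3.69 in wild type, a difference of 0.81 ± 0.18, or 1.75-fold (limma, Benjamini-Hochberg adjusted p = 0.35). Without wild type replicate 2 it was 1.02 and passed (limma, Benjamini-Hochberg adjusted p = 0.037), but all values of the gene were dim. Ifit1bl2 had 5.31, 5.08 and 5.31 in 5XFAD and 4.82, 4.85 and 4.67 in wild type, a difference of 0.46 ± 0.11 (limma, Benjamini-Hochberg adjusted p = 0.43). In both of these dim genes the lowest 5XFAD array exceeded the highest wild-type array, which was not so in Ifit1. Oas1g, of the OAS family, lay between them in size at 0.57 ± 0.25, with arrays that overlapped, and Ifit3b, another IFIT relative, differed by 0.20 ± 0.31. Other genes under an unadjusted p of 0.05 were the factor Irf4 (0.34 ± 0.13), the DNA sensor Aim2 (0.29 ± 0.12), Ifitm1 (0.42 ± 0.16), which blocks viral entry, and Oas1b (0.34 ± 0.14). Sting1, the adaptor of cytosolic DNA sensing, differed by 0.40 ± 0.19, and Calr, a chaperone of class I loading, by 0.27 ± 0.14. Also among the 2 genes of smallest p in their lists were Irf8 (0.10 ± 0.10) and Pdia3 (0.14 ± 0.11). So were the phosphatase gene Ptpn2 (-0.14 ± 0.12) and Pias4 (-0.14 ± 0.12), an inhibitor of STAT signalling.

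Markers of cell types were set beside the arrays that stood out. In wild type replicate 2 the mean of 20 macrophage and microglia markers was 0.09 below its 6-array mean, and 1 of the 20 had its highest value there. T cell and NK cell markers (14 genes) stood at 0.09 in wild type replicate 2 and at 0.09 and 0.06 in the other wild-type arrays, and RPE markers (18 genes) at 0.21 against 0.10 in both others. Endothelium markers (10 genes) stood at 0.05 against 0.01 and -0.03. In 8 of these 10 wild type replicate 2 lay above both other wild-type arrays, beside 36.8% of all genes. It was the highest of the 6 arrays in 2 of them, beside 18.6% of all genes. Rod and cone photoreceptor markers (10 genes) set it furthest from the other wild-type arrays, at -0.47 against 0.48 and 0.27, and skeletal muscle markers stood at -0.69 against -0.87 and 0.49. Their part in the values of wild type replicate 2 was not tested. In 5XFAD replicate 1 the macrophage mean was 0.27 above its 6-array mean, with 16 of 20 markers highest there, and the skeletal muscle mean (15 genes) was 1.08 above it, with 13 highest, where 14.3% of all genes were highest. The photoreceptor mean was 0.36 above it, and 8 of the 10 markers had their highest 5XFAD value there, beside 31.7% of all genes. By group the macrophage mean ran from 8.39 to 8.80 in 5XFAD and from 8.43 to 8.53 in wild type, the muscle mean from 6.15 to 7.42 in 5XFAD and from 5.47 to 6.83 in wild type, and the photoreceptor mean from 5.64 to 6.59 in 5XFAD and from 5.76 to 6.71 in wild type. The part of these lists in the GBP and IRG values of 5XFAD replicate 1 was not tested. The means of 3 lists did not overlap between the groups. Surface epithelium means were 6.57 to 7.08 in 5XFAD and 5.87 to 5.92 in wild type. Of its 15 markers 8 were higher without overlap, beside 4.72% of all genes, and 4 had a negative difference. RPE means were 10.60 to 10.66 in 5XFAD and 10.87 to 10.97 in wild type. Of its 18 markers 10 were lower at an unadjusted p under 0.05, beside 3.39% of all genes. The difference was positive in 4, namely Best1, Tyrp1, Dct and Pmel. T cell and NK cell means were 5.20 to 5.43 in 5XFAD and 5.47 to 5.50 in wild type. Of these 14 markers 4 were lower at that p, beside 3.39% of all genes, and 2, Cd4 and Prf1, had a positive difference.

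**Figure D5:**
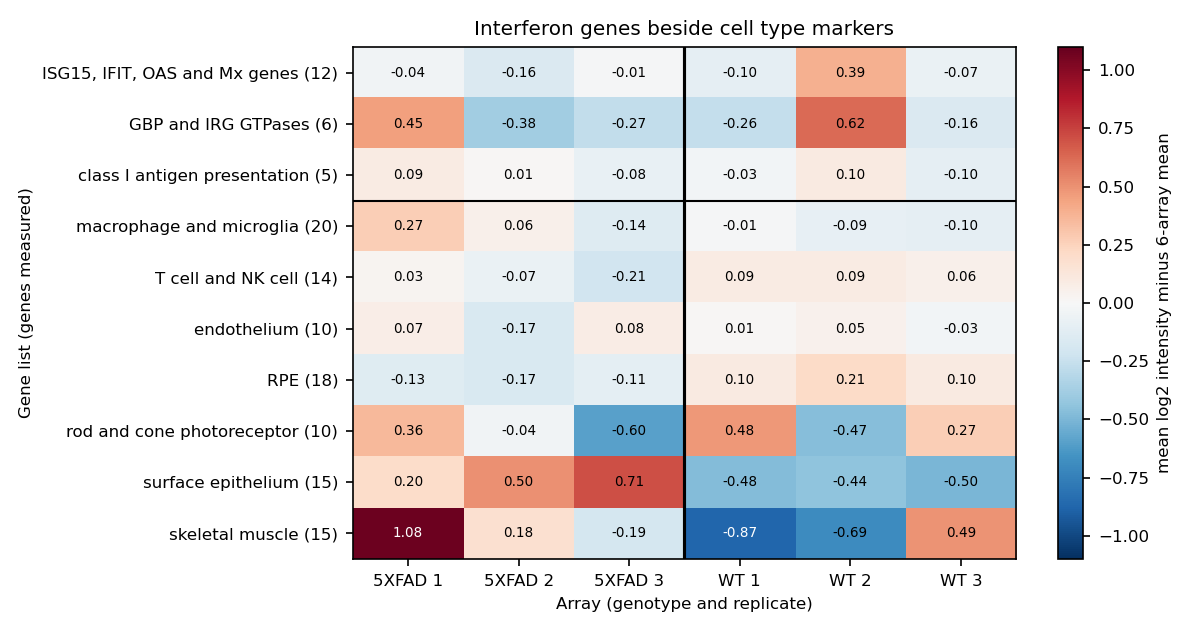
Mean log2 intensity of gene lists (rows, with the number of genes measured) on each array (columns), minus the list's mean over the 6 arrays. The mean of the ISG15, IFIT, OAS and Mx genes is high in wild type replicate 2 alone (0.39), though not every gene of the list rises there. The mean of the GBP and IRG genes is high there (0.62) and in 5XFAD replicate 1 (0.45). In 5XFAD replicate 1 the macrophage (0.27), photoreceptor (0.36) and skeletal muscle (1.08) lists are also high.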

How the data were processed

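Total RNA of RPE, choroid and sclera from 3 samples of 5XFAD and 3 of wild-type littermate mice was measured on Affymetrix arrays, grouped and numbered by title. The authors deposited log2 intensities. Per the submitters' processing notes, RMA was run in Affymetrix Expression Console 1.1. That method subtracts background, forces arrays onto a shared distribution and combines probes, so shifts of the whole distribution are removed. The labels give no genome build, filter or pooling. Values were used as deposited. Of 33793 probe sets, 23521 had 1 gene symbol in the platform annotation, 1814 several and 8458 none. Entrez identifiers of 23328 matched a RefSeq table (GRCm38.p6), used for names and neighbours.

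All 22180 genes were fitted with limma 3.58.1 (R 4.3.3) on genotype alone, with two-sided moderated tests adjusted by Benjamini-Hochberg over all genes. The fit was tested on simulated data. No detection calls were used. Alternatives were leaving out each array, weighting arrays, a replicate block, averaging or keeping all probe sets, a trended robust prior, dropping the dimmest 30% or 50% of genes, and renormalizing by quantiles or by median. The members and lists were chosen with earlier results of these data known. By rule, values by array are given for members with an unadjusted p under 0.05 or non-overlapping groups (0 here), and in each role group for the brightest member and that of smallest p. Of other pathway genes, those under that p, the 2 of smallest p in each list and the receptors are named. Further members, Ifng and the genes under other observations were chosen after their values were seen.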

Additional observations from a re-analysis of the deposited data

How the results depend on the processing

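Under all 15 alternatives, 0 of the 43 interferon response genes passed the adjusted threshold in limma (smallest Benjamini-Hochberg adjusted p = 0.55, without wild type replicate 2). Their median difference was -0.08 to -0.03 under the 9 that kept all arrays and -0.17 to 0.08 with arrays left out in turn, positive only without wild type replicate 2, where 19 genes changed sign. With array weights 7 changed sign, with another quantile normalization 1, and under the others that kept all arrays 0. With arrays left out, 0 to 1 were higher and 0 to 3 lower at an unadjusted p under 0.05, namely Ifit3, Ifi35, Oas2, Oas3, Zbp1 and Cmpk2, beside 2.48% to 3.77% of all genes higher and 2.64% to 4.72% lower. Groups did not overlap in 1 gene after median centring (Psmb9) and in 1 after another quantile normalization (Rtp4). The share of all genes under those settings is not given here, and in the main fit it was 11.3%. With arrays left out, groups did not overlap in 0 to 6 of the 43, beside 20.1% to 24.7% of all genes. The count of all genes passing was 8 without the dimmest 30% of genes, 9 after median centring, 9 with a trended and robust prior, 8 with array weights, and 3 to 19 with arrays left out (19 without wild type replicate 2, 3 without wild type replicate 3). Of the other pathway genes, 0 to 1 passed with arrays left out (Ifit1bl1, without wild type replicate 2). Those under an unadjusted p of 0.05 numbered 9, but 4 when the dimmest 30% of genes were dropped, 0 when 50% were, 5 after median centring and 5 to 12 with arrays left out (5 without 5XFAD replicate 2). The filters removed dim genes, Ifit1bl1, Ifit1bl2 and the ligand Ifnb1 among them. For the other moves the cause was not tested. Deviations of same-numbered arrays from their group means correlated at -0.056, -0.05 and 0.128, and only number 3 correlated best with its own number. 5XFAD replicate 1 correlated best with wild type replicate 2 (0.121), and 5XFAD replicate 2 with wild type replicate 1 (0.13). Correlations this weak cannot decide whether samples were paired. With the replicate block, 6 genes passed over all genes and 0 members. Dim genes such as Mx1, Ifit1bl1 and the ligands limit what these arrays can show.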

Other observations

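The genes below were not among the 43, and were counted above with the 51 further interferon-induced genes. The chemokines that interferon gamma induces did not all follow 1 pattern. Cxcl9, a T cell attractant, had 6.72, 4.81 and 5.30 in 5XFAD and 5.17, 6.57 and 6.08 in wild type (log2 intensity, replicates 1 to 3). The difference was -0.33 ± 0.47 (± SE), so the spread within each genotype was wider than the difference between them. Cxcl10, a ligand of the same receptor, had 5.82, 5.44 and 5.43 in 5XFAD and 5.41, 6.12 and 5.56 in wild type. It was highest in wild type replicate 2, with 5XFAD replicate 1 next. Cxcl11, also a ligand of that receptor, went the other way in wild type replicate 2, its lowest array, with 5.70, 5.61 and 5.66 in 5XFAD and 5.71, 5.35 and 5.91 in wild type. Gbp4 had 5.97, 4.09 and 4.32 in 5XFAD and 4.84, 4.93 and 4.24 in wild type, and 5XFAD replicate 1 stood alone. Irgm2, another immunity-related GTPase, had 8.28, 7.48 and 7.52 in 5XFAD and 7.73, 8.42 and 7.91 in wild type, with the same 2 arrays on top as in Iigp1.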
